A study of Mus musculus with 15 samples.

Results

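Expression of 10 transcription factors of the heart and epicardium (Tbx5, Tbx18, Tbx20, Tcf21, Wt1, Gata4, Gata5, Gata6, Hand2 and Mef2c) was followed across cultured cardiac stromal cells. They were taken by name, each by the probe set that names only that gene, and all 10 were measured among 19938 genes. The cells were cardiac colony-forming unit fibroblasts (cCFU-F), stromal cells of the mouse heart that form colonies in culture. They were sorted as SCA1+, PDGFRα+ and CD31- from C57BL/6 mice aged 12 weeks and labelled male. RNA from 15 samples was measured on 15 arrays, 3 in each of 5 groups. Large colonies were grown untreated to passage 5 and to passage 15. Small colonies were grown untreated to passage 5, or with 50 ng/ml of the growth factor PDGF-AB to passage 5 and to passage 15. Whether replicate arrays stand for separate cultures or separate mice is not in the labels, so p-values cover only the spread among arrays, and that spread may be technical. There was no group of untreated small colonies at passage 15, so at that passage colony size and PDGF-AB cannot be told apart.

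These factors are the regulators that build the heart in the embryo. GATA4, GATA5 and GATA6 are zinc finger proteins that act with the T-box proteins TBX5 and TBX20, the bHLH protein HAND2 and the MADS box protein MEF2C on cardiac genes. TBX18, WT1 and the bHLH protein TCF21 mark the epicardium, the outer cell layer of the heart, which gives rise to many of its fibroblasts and mural cells. Cardiac fibroblasts keep expressing several of these genes, in contrast to fibroblasts of other organs.

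Values are log2 intensities as the authors deposited them, given for each of the 3 arrays or as mean ± SD (n = 3), and a change is a difference of log2 means with the SE of the limma fit. Adjusted p-values are from limma with Benjamini-Hochberg adjustment over 19938 genes, and a gene was called where the adjusted p was under 0.05. Levels were not compared between genes, because probe sets differ in how brightly they bind. The 95th percentile of 1027 olfactory receptor genes, which fibroblasts are not known to use, stood for background and lay at 4.89. No fold is given against a group whose mean lay at or below it. Shares of all genes, given beside counts of the factors and lists, include genes at background and are not matched to them for level.

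Promoters of Tbx20 and Tcf21, factors that were high in some groups and below background in others, are shown beside that of Tbx18, a T-box gene with a narrow range. They come from the RefSeq table of GRCm38.p6 and hold 250 bases before and 50 bases after the start of the gene. Windows were read for 6 of the 10 factors. Capitals mark matches, on either strand, to a short list of motifs: the GATA sites AGATAA and TGATAA, the T-box site AGGTGT, the E-box CANNTG, the TEAD site GGAATG, the TATA box TATAAA and the GC box GGGCGG. None of the matches shown overlap each other.
Tbx20 (chr9:24774254-24774553, minus strand): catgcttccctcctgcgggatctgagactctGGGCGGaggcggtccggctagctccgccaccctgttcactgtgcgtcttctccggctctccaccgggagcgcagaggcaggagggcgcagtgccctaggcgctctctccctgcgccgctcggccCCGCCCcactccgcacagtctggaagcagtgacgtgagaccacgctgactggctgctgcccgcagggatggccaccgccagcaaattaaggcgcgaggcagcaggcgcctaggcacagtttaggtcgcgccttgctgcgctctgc
Tcf21 (chr10:22820094-22820393, minus strand): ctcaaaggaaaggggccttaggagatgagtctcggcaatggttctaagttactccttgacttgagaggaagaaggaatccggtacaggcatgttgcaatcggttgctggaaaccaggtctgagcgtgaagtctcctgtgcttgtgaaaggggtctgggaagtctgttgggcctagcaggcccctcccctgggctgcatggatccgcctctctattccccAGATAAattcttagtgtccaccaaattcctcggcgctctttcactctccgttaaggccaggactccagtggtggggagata
Tbx18 (chr9:87731211-87731510, minus strand): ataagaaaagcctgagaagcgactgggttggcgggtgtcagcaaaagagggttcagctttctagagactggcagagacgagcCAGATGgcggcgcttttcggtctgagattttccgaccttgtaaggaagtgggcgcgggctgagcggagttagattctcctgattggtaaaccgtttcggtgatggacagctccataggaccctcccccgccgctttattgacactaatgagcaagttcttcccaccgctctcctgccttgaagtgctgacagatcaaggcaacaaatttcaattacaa
The Tbx20 window held 2 GC boxes, a motif found in 35.6% of 32817 promoter windows of this length, and its GC content of 68.3% was above that of 88% of them. The Tcf21 window held 1 GATA site, AGATAA, starting at position -31 from the gene start, a motif found in 11.2% of windows. The Tbx18 window held 1 E-box, CAGATG, and 72.3% of windows held some E-box. None of the 3 windows held the T-box site (13.7% of windows) or the TEAD site (14.7%). A match is a string of letters, not a measured binding site.

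Array medians lay between 5.59 and 5.72, and Pearson's r across genes, which are not independent replicates, was at least 0.997 between arrays of a group. All 9 fibroblast markers tested lay above background in every group, Vim, Pdgfrb and Col1a1 among them. The CD31 gene Pecam1 lay below background in all 5 groups, and so did the leukocyte gene Ptprc, but not all markers of such cells did. Of 7 endothelial markers 2 to 4 lay above background in a group. Of 6 macrophage and leukocyte markers 3 lay above it in every group, and of 5 pericyte markers 2 to 4. Of 18 cardiomyocyte genes 12 to 14 lay above background in a group and 4 to 6 at or below it. The troponin gene Tnnt2 had group means from 7.32 to 10.38, well above background. Myh6, the adult heart myosin, reached at most 5.08 ± 0.10 as a group mean, just above background. The 4 Y-linked genes measured lay between 2.24 and 3.42 and Xist between 8.93 and 10.88 in cells labelled male, so the sex label and the arrays do not match in any group. The SCA1 gene was not analysed here.

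**Figure D1:**
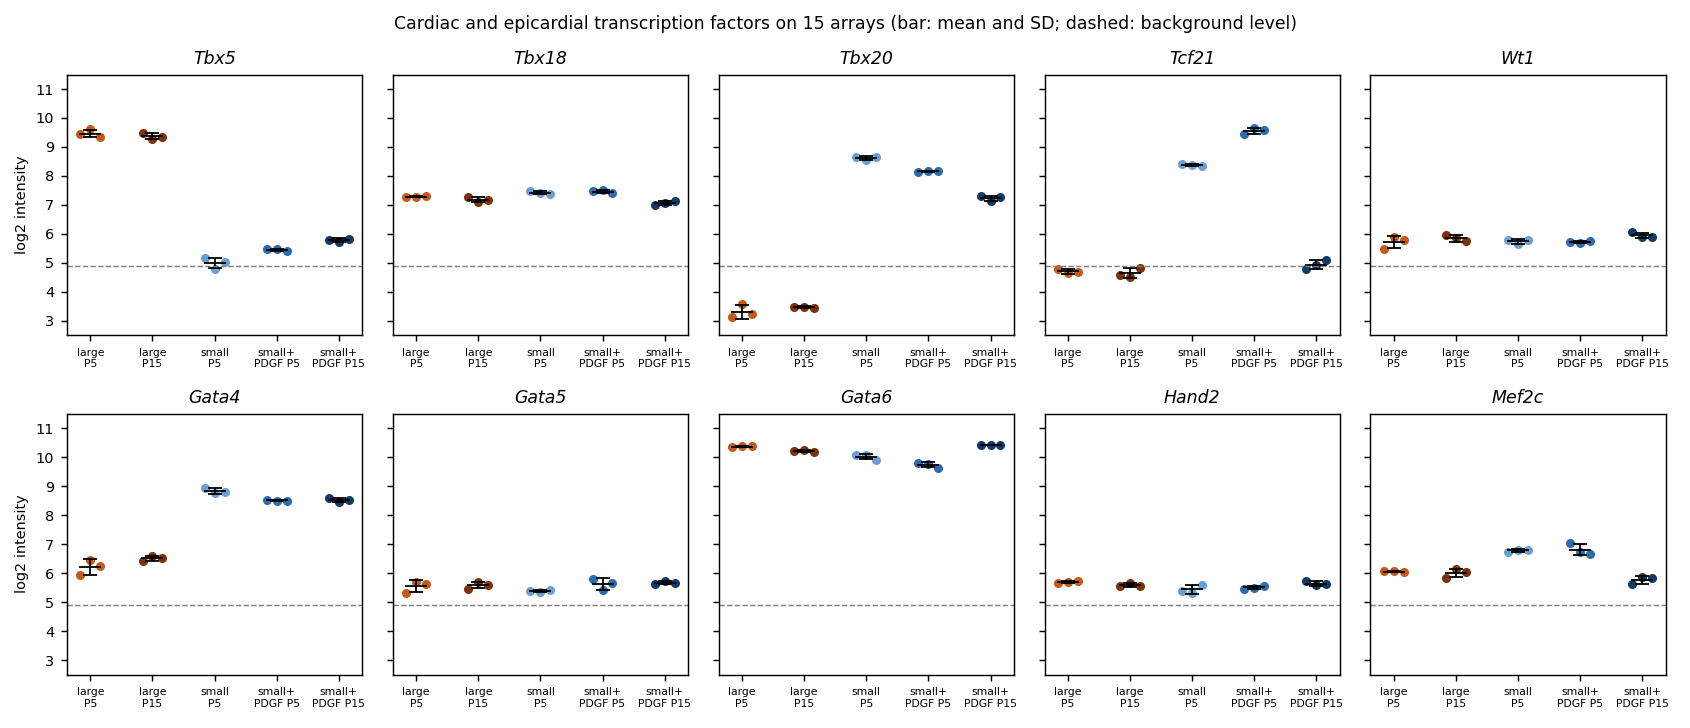
Log2 intensity (vertical axis) of the 10 factors in the 5 groups, with a point for each of the 15 arrays, a bar for the mean and SD of 3 arrays, and a dashed line at the background level of 4.89. Tbx5 stands at 9.27 to 9.61 in large colonies and at 4.80 to 5.83 in small ones, while Tbx20, Tcf21 and Gata4 show the opposite order at passage 5.

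Of the 3 T-box genes Tbx5 and Tbx20 differed between the colony types, in opposite directions. Tbx5, a factor of the atria, the left ventricle and the forelimb, was high in large colonies. It read 9.43, 9.61 and 9.36 in large colonies at passage 5 and 9.48, 9.27 and 9.36 at passage 15. In small colonies it read 5.15, 4.80 and 5.04 untreated, 5.48, 5.47 and 5.42 with PDGF-AB, and 5.80, 5.72 and 5.83 with PDGF-AB at passage 15. Every array of large colonies thus lay above every array of small colonies, while the arrays of the large colonies overlapped between passages. Tbx5 was 22.1-fold higher in large than in untreated small colonies at passage 5 (log2 difference 4.47 ± 0.086 SE, adjusted p = 3.5e-16), rank 17 of 19938 among the rises. In small colonies its level lay close to background, so this fold depends on it.

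Tbx20, a T-box factor needed for chamber growth and for adult heart muscle, ran the other way. It read 8.64, 8.54 and 8.66 in untreated small colonies, 8.14, 8.16 and 8.18 with PDGF-AB, and 7.29, 7.13 and 7.26 with PDGF-AB at passage 15. In large colonies it read 3.13, 3.56 and 3.22 at passage 5 and 3.49, 3.49 and 3.43 at passage 15, in all 6 arrays below the background level. Its small colony groups did not overlap with each other or with large colonies. Large minus small at passage 5 was measured as -5.31 ± 0.087 SE (adjusted p = 5.4e-17). Since large colonies were below background, the size is a bound: small colonies were higher by at least 3.72 on the log2 scale when set against the background level. In whole cultures fewer cells that express a gene and less RNA per cell cannot be told apart.

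Tbx18, an epicardial and mural cell factor, stayed within a narrow range of 6.99 to 7.50 over the 15 arrays. Its group means ran from 7.46 ± 0.048 in treated small colonies at passage 5 to 7.07 ± 0.074 in the same colonies at passage 15. These spanned 0.39, against a median span of 0.40 over all genes. Large and untreated small colonies at passage 5 did not overlap (7.28 ± 0.0075 and 7.43 ± 0.049), but the difference did not pass the test (-0.14, 95% interval -0.27 to -0.02, adjusted p = 0.0743). It passed with low genes (under the median level) removed (adjusted p = 0.0327) and with array weights (adjusted p = 0.0473).

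The bHLH factor Tcf21, which marks epicardial cells on the way to becoming cardiac fibroblasts, ranged from below background to a high level. It read 8.41, 8.38 and 8.35 in untreated small colonies at passage 5 and 9.44, 9.66 and 9.57 with PDGF-AB. It then stood at 4.78, 4.92 and 5.09 in treated small colonies at passage 15. Large colonies read 4.79, 4.65 and 4.68 at passage 5 and 4.58, 4.53 and 4.83 at passage 15, below background. The late small colonies overlapped with the large ones, and both early small groups lay far above them. Hand2, a bHLH factor of the right ventricle and outflow tract, kept to 5.32 to 5.73 over the 15 arrays, and each of its groups overlapped with the next in order.

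Gata4, an early zinc finger factor of the cardiac program, read 8.94, 8.76 and 8.80 in untreated small colonies at passage 5. It stood between 8.45 and 8.60 in the 6 treated small arrays, and the treated groups of the 2 passages overlapped. In large colonies it read 5.93, 6.46 and 6.24 at passage 5 and 6.42, 6.58 and 6.52 at passage 15. Small colonies were thus above large ones in every array. Gata6, the related factor of outflow tract and mesoderm, was well above background everywhere, from 9.64 to 10.44 over the 15 arrays. Its 5 groups did not overlap, in the order treated small at passage 15, large at passage 5, large at passage 15, untreated small and treated small at passage 5. Gata5, the family member of the endocardium, lay between 5.31 and 5.81 and its groups overlapped from each to the next.

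Wt1, the zinc finger factor of the epicardium, lay between 5.49 and 6.05 and its groups overlapped in every step of their order. The span of its group means, 0.23, was wider than that of 20.9% of all genes. Mef2c, the MADS box factor of heart muscle and vessels, stood at 6.79 ± 0.045 in untreated and 6.81 ± 0.18 in treated small colonies at passage 5. It stood at 6.05 ± 0.020 and 6.00 ± 0.15 in large colonies and at 5.76 ± 0.14 in treated small colonies at passage 15. The early small groups overlapped with each other and lay above the other 3 groups, which overlapped in their order.

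Large and small untreated colonies were compared at passage 5 to find what sets the colony types apart. In large colonies Tbx5, Gata6 (0.35 ± 0.060 SE, adjusted p = 1.6e-04) and Hand2 (0.25 ± 0.070, adjusted p = 0.0103) were higher. Tbx20, Tcf21, Gata4 and Mef2c (-0.74 ± 0.092, adjusted p = 6.0e-06) were lower. Tcf21 was measured as -3.67 ± 0.089 (adjusted p = 6.0e-15), with large colonies below background, so that small colonies were higher by at least 3.49. Gata4 was 6.16-fold lower in large colonies (-2.62 ± 0.099, adjusted p = 1.7e-12), rank 53 among the falls. Hand2 lost its call when replicate 2 of untreated small colonies was left out (adjusted p = 0.0651).

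Of the 10 factors 7 were called between the colony types, against 36.2% of all genes, and 4 of 10 were called at 2-fold or more, against 3.93% of all genes. The groups did not overlap in 8 of 10, against 44.9% of all genes. The median size of the change was 0.55 over the 10 factors and 0.14 over all genes. Wt1 (-0.02, 95% interval -0.21 to 0.17, adjusted p = 0.891) and Gata5 (0.16, interval -0.06 to 0.38, adjusted p = 0.253) did not pass, and Gata5 passed without large passage 5 replicate 1 (adjusted p = 0.0357).

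Related genes were read from a list of 40 other cardiac and lateral mesoderm factors and cofactors, of which 38 were tested. In large against small colonies 11 were higher and 10 lower, against 18.2% and 18% of all genes, with a median change of 0.08 (all genes 0.03). Higher in large colonies were Nr2f2, the orphan receptor of atria and veins (2.83-fold), and Hey2, a Notch effector (3.50-fold). Myocd, the smooth muscle coactivator of SRF, was also higher. It stood at 5.93 in large colonies and at 4.03, below background, in small ones, so no size is given. Lower were Tbx1, a factor of the second heart field (-1.81), Osr1 (-0.98) and the sinus node factor Shox2 (-1.16).

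Of 13 markers of the epicardium and mesothelium 4 were higher and 2 lower in large than in small colonies, against 18.2% and 18% of all genes, with a median change of 0.14 (all genes 0.03). Aldh1a2, the retinoic acid enzyme of the epicardium, stood at 9.18 ± 0.040 in large colonies and at 4.25 ± 0.066 in untreated small colonies, the second of these below background. Bnc1, a zinc finger gene of mesothelium, was higher by 0.40 and the uroplakin gene Upk1b by 0.54, while Lrrn4 (-0.61) and Podxl (-0.47) were lower. Of the 18 cardiomyocyte genes 2 were higher and 1 lower. That 1 was Tnnt2, cardiac troponin T, which was 3.07-fold lower in large colonies (-1.62, adjusted p = 1.7e-13).

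**Figure D2:**
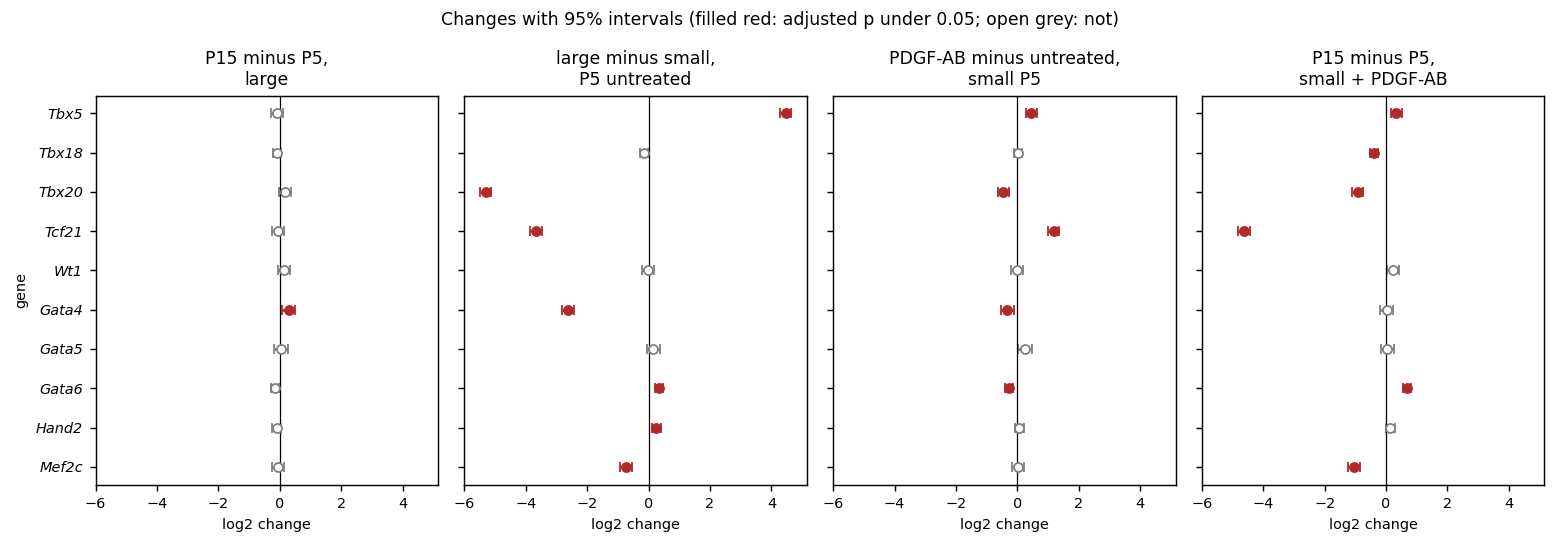
Log2 change (horizontal axis) of each factor with its 95% interval in 4 comparisons, filled red where the adjusted p was under 0.05 and open grey where it was not. Tbx20 (-5.31), Tcf21 (-3.67), Gata4 (-2.62) and Tbx5 (4.47) stand apart between colony types, the first pair against levels below background in large colonies, and Tcf21 (-4.62) between passages of treated small colonies.

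PDGF-AB was compared with no treatment in small colonies at passage 5 to see what the growth factor changed in them. Tcf21 rose 2.26-fold (1.18 ± 0.089 SE, adjusted p = 4.3e-08), rank 50 among the rises, and Tbx5 rose 1.37-fold (0.46 ± 0.086, adjusted p = 7.4e-04). Tbx20 fell 1.37-fold (-0.45 ± 0.087, adjusted p = 8.6e-04), Gata6 fell 1.22-fold (-0.28 ± 0.060, adjusted p = 0.00178) and Gata4 fell 1.25-fold (-0.32 ± 0.099, adjusted p = 0.0214). In each of these 5 the treated arrays lay wholly on one side of the untreated ones. The 5 of 10 called compare with 28.9% of all genes, and the 5 of 10 without overlap with 43%. Thus 2 factors rose and 3 fell, against 10.7% and 18.2% of all genes.

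The fall of Gata4 did not hold in every setting: it had adjusted p = 0.0734 with cyclic loess, 0.0901 without untreated small replicate 1, and 0.0595 and 0.0566 without treated replicates 2 and 3. The other changes kept their calls in the settings tried. Mef2c (0.03, 95% interval -0.17 to 0.22), Tbx18 (0.03, interval -0.10 to 0.16), Wt1 (-0.02, interval -0.21 to 0.17) and Hand2 (0.07, interval -0.08 to 0.22) did not pass. Gata5 (0.25, adjusted p = 0.0864) passed without treated replicate 2 (adjusted p = 0.0157). Only Tcf21 was called at 2-fold or more among the 10, against 1.39% of all genes.

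Of the 38 related factors 14 rose and 6 fell with PDGF-AB, against 10.7% and 18.2% of all genes, with a median change of 0.13 (all genes 0.02). The rises with the smallest adjusted p were in Nr2f2 (0.55), the TEAD factor Tead2 (0.57) and Zfpm1, a GATA cofactor (0.44). Zfpm2, the GATA4 cofactor also called FOG2, fell by 0.26. Against the same shares, none of the 13 epicardial markers rose and 4 fell, including Bnc1 (-1.70 ± 0.068), Upk3b (-1.58 ± 0.096) and Upk1b (-1.01 ± 0.097). The median change over the 13 was 0.03 (all genes 0.02), so the list as a whole did not fall. Tcf21 thus rose in cultures in which Bnc1, Upk3b and Upk1b fell. Of the 9 fibroblast markers 6 fell and none rose, against the same shares. Of the 18 cardiomyocyte genes 3 rose, Tnnt2 (0.78) among them, and 1 fell, against the same shares.

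Passage 15 was compared with passage 5 in treated small colonies. Tcf21 fell 24.7-fold (-4.62 ± 0.089 SE, adjusted p = 6.5e-16), the largest fall of all 19938 genes. Its level at passage 15, 4.93 ± 0.15, lay close to background, so this fold depends on it. Mef2c fell 2.07-fold (-1.05 ± 0.092, adjusted p = 6.8e-08), Tbx20 1.91-fold (-0.93 ± 0.087, adjusted p = 1.5e-07) and Tbx18 1.31-fold (-0.39 ± 0.060, adjusted p = 4.6e-05). Gata6 rose 1.61-fold (0.68 ± 0.060, adjusted p = 6.4e-08) and Tbx5 1.26-fold (0.33 ± 0.086, adjusted p = 0.00487). Gata4 stood at 8.51 ± 0.024 and 8.53 ± 0.074 (0.02, 95% interval -0.19 to 0.23).

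Of the 10 factors 6 were called, against 46% of all genes, and 2 of 10 at 2-fold or more, against 5.26%. The groups did not overlap in 8 of 10, against 54.9% of all genes. The 2 that rose and the 4 that fell compare with 24.6% and 21.4% of all genes. With arrays centred on their medians 3536 genes rose and 4950 fell, in place of 4910 and 4259. Wt1 (0.23, 95% interval 0.03 to 0.42, adjusted p = 0.052) did not pass, although its arrays did not overlap between passages, and it passed with the compared arrays alone (adjusted p = 0.017) and with array weights (adjusted p = 0.0172). Of the 38 related factors 9 rose and 13 fell (median 0.01, all genes 0.05), with the smallest adjusted p in Gata3 (1.68) and Nr2f2 (1.07) among the rises and in Foxc1 (-0.97) among the falls. The endothelial markers rose in 3 of 7 cases without a fall, but Pecam1, Emcn and Tek stayed below background. The mean over the 7 genes was 4.44 to 4.68 in the arrays at passage 5 and 4.75 to 4.84 at passage 15. Their part in these changes was not tested.

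Passage 15 was compared with passage 5 in untreated large colonies in the same way. Here 1 of 10 factors was called, Gata4 (1.23-fold higher, 0.30 ± 0.099 SE, adjusted p = 0.0261), against 36.1% of all genes. None of the 10 was called at 2-fold or more, against 3.77% of all genes, and 1 of 10, Gata6, did not overlap between passages, against 44.5%. The arrays of Gata4 overlapped between passages, since replicate 1 at passage 5 read 5.93 and the others 6.24 and 6.46. Without that array the change was 0.16 (adjusted p = 0.143). Without passage 15 replicate 2 or 3 the adjusted p was 0.0914 or 0.0658, and with the compared arrays alone it was 0.0951. Gata6 changed by -0.16 without overlap of its arrays (adjusted p = 0.0529), and was called with cyclic loess (adjusted p = 0.0335), with genes below the median left out (0.0209), with trend and robust moderation (0.0136), with array weights (0.0461) and with the replicate block (0.0466).

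The median size of the change in large colonies was 0.10 over the 10 factors and 0.14 over all genes. Tbx5 changed by -0.09 (95% interval -0.28 to 0.09) and Tcf21 by -0.06 (interval -0.25 to 0.13), the second of these below background at both passages. Tbx20 changed by 0.17 (adjusted p = 0.153), below background at both passages, and was called without passage 5 replicate 2 (adjusted p = 0.00208). Of the 38 related factors 15 rose and 8 fell, against 17.4% and 18.7% of all genes, with a median of -0.05 (all genes -0.04). Meis1, a cofactor of Hox proteins, rose by 0.62, Mef2a fell by 0.66 and Hey2 fell by 2.70 to a level below background. Of the 13 epicardial markers 4 rose and 3 fell. The falls were in Aldh1a2 (4.32-fold), Upk1b (3.84-fold) and Upk3b (2.79-fold), and Krt19 (1.04), Bnc1 (0.57) and Podxl (0.73) were among the rises.

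The difference between the passage changes of treated small and untreated large colonies was tested directly. Colony size and PDGF-AB differ together in this test and cannot be told apart. It was called for 6 of 10 factors, against 34.4% of all genes, and for 3 of 10 at 2-fold or more, against 4.23%. The fall of Tcf21 was larger in small colonies by 4.57 ± 0.13 SE (difference -4.57, adjusted p = 1.3e-13). Tcf21 in large colonies was already below background at passage 5, so a further fall there could not have been seen. The passage change was also lower in small colonies for Tbx20 (-1.10 ± 0.12, adjusted p = 3.2e-06), with the same limit, for Mef2c (-1.004 ± 0.13, adjusted p = 1.6e-05) and for Tbx18 (-0.29 ± 0.085, adjusted p = 0.0152). It was higher for Gata6 (0.84 ± 0.084, adjusted p = 9.1e-07) and Tbx5 (0.42 ± 0.12, adjusted p = 0.0137). The difference was not called for Gata4 (-0.28, 95% interval -0.58 to 0.02, adjusted p = 0.132).

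**Figure D3:**
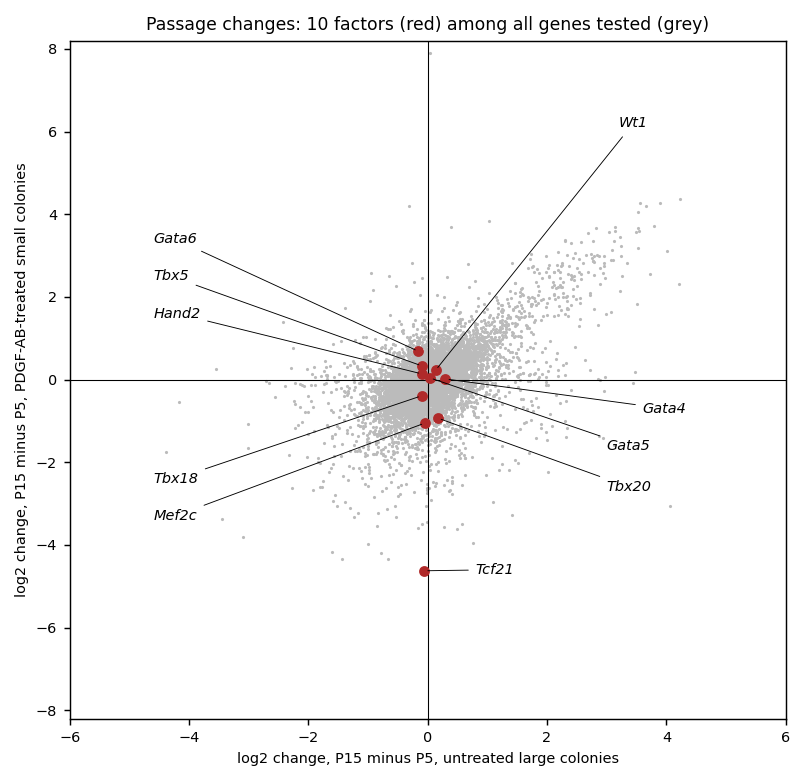
Log2 change from passage 5 to passage 15 in untreated large colonies (horizontal axis) and in PDGF-AB-treated small colonies (vertical axis), with the 10 factors in red among 19938 genes in grey. Tcf21 (-0.06 and -4.62) lies at the bottom of the plot, and the other factors lie between -1.05 and 0.68 on the vertical axis.

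Treated small colonies were set against untreated large colonies at each passage, where colony size and PDGF-AB differ together. These comparisons share arrays with those above. Tbx20 and Tcf21 were below background in large colonies at both passages, so their differences are given as bounds against the background level. At passage 5 the differences, small minus large, were -4.01 for Tbx5, at least 3.27 for Tbx20, at least 4.67 for Tcf21, 2.30 for Gata4 and 0.76 for Mef2c. At passage 15 they were -3.59 for Tbx5, at least 2.34 for Tbx20, 2.02 for Gata4 and -0.24 for Mef2c, and Tcf21 in small colonies (4.93 ± 0.15) was itself close to background. Tbx5, Tbx20 and Gata4 were thus called at 2-fold or more at both passages, and Tcf21 at passage 5. Gata6 was lower in small colonies at passage 5 (-0.63, adjusted p = 2.6e-07) and higher at passage 15 (0.21, adjusted p = 0.00882), and the second of these was not called with arrays centred on their medians (0.11, adjusted p = 0.178).

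Of the 10 factors 7 were called at passage 5, against 35.7% of all genes, and 6 at passage 15, against 53.4%. At 2-fold or more they were 4 of 10 at passage 5, against 3.64% of all genes, and 3 of 10 at passage 15, against 4.64%. The groups did not overlap in 8 of 10 at passage 5, against 43.9% of all genes, and in 4 of 10 at passage 15, against 60.7%. Several of these calls depended on the setting. Hand2 at passage 5 (-0.18, adjusted p = 0.0579) was called with centring (0.0288), cyclic loess (0.016), the compared arrays alone (0.0449) and array weights (0.0262), and Tbx18 at passage 15 (-0.11, adjusted p = 0.119) with centring (0.014). The call of Tbx18 at passage 5 (0.17, adjusted p = 0.0316) was lost with arrays centred on their medians (adjusted p = 0.077), without any 1 of the 3 large replicates (0.0709, 0.0711 and 0.063) and without treated replicate 1 or 2 (0.0755 and 0.114). At passage 15 the call of Tcf21 (adjusted p = 0.0126) was lost with centring (0.0875), with cyclic loess (0.0547), without large replicate 1 or 2 (0.0519 and 0.0638) and without small replicate 3 (0.0745). That of Mef2c (adjusted p = 0.0384) was lost without large replicate 2 or 3 (0.159 and 0.0925) and without small replicate 1 (0.18).

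The genes whose levels ran most like those of the 4 widely ranging factors were found by Pearson's r over the 15 arrays, among 2691 other genes whose group means spanned at least 1. The arrays fall into 5 groups of 3, so these values describe likeness over 5 conditions and carry no test. For Tbx5 they were the fibroblast surface gene Thy1 (r = 0.994), the growth factor gene Fgf7 (0.994) and the cytokine gene Tnfsf15 (0.994). Thy1 stood at 10.33 and 10.63 in large colonies and at 5.11 to 5.49 in small ones. For Tbx20 they were the xylosyltransferase gene Gxylt2 (0.997), the LIM homeobox gene Lhx8 (0.995) and the growth factor gene Pdgfc (0.992). For Gata4 they were Gxylt2 (0.993), the stanniocalcin gene Stc2 (0.987) and Tbx20 (0.986). For Tcf21 they were Mmp23 (0.987), Ccdc3 (0.985) and Clec2e (0.982), of which Clec2e lay near or below background. Fgf7 lay below background in every small colony group (4.32 to 4.73), Tnfsf15 in untreated small colonies (4.79) and Tbx20 in large colonies. These likenesses thus rest partly on background levels.

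The nearest measured neighbours of the factors were read by gene order in RefSeq, and those described were picked after their values were seen. Next to Tcf21 on chromosome 10 lies the long noncoding RNA gene Gm10824, whose annotated span overlaps with that of Tcf21, and the strand that the probes read is not given in the sources used here, so signal of one cannot be told apart from that of the other. Gm10824 read 5.25, 5.11 and 4.84 in untreated small colonies, 5.78, 6.07 and 6.04 with PDGF-AB, and 4.39, 4.26 and 4.28 at passage 15. It rose by 0.90 with PDGF-AB (adjusted p = 7.2e-06) and fell by 1.66 between passages of treated small colonies (adjusted p = 1.1e-09), in the directions of Tcf21, and its difference between large and small colonies was -0.85 (adjusted p = 5.4e-06). In large colonies and in late small ones it lay below background. The sizes of its fall with passage and of its difference between colony types thus rest partly on background levels.

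On the other side of Tcf21, Eya4, a transcriptional coactivator gene, shared part of that pattern. Its level at passage 5 was 7.53 ± 0.074 in large colonies and 9.69 ± 0.074 in untreated small ones, a difference of -2.16 (adjusted p = 6.1e-14). It did not follow Tcf21 further: with PDGF-AB it changed by -0.08 (adjusted p = 0.343), and between passages of treated small colonies it rose by 0.30 (adjusted p = 9.3e-04). Tbx3, the T-box gene beside Tbx5, was higher in large than in small colonies by 0.39 (adjusted p = 1.5e-04), and Rbm19 on the other side changed by -0.03. Beside Tbx20, Dpy19l2 (0.10, below background) and Herpud2 (0.02) were not called between colony types. Herpud2 fell with passage in treated small colonies (-0.75, adjusted p = 8.0e-09), the direction of Tbx20, and also in large colonies (-0.57, adjusted p = 3.3e-07). It rose with PDGF-AB (0.34, adjusted p = 2.0e-04), against the direction of Tbx20. Beside Gata4, Neil2 and Blk lay below background in both. Mib1, the ubiquitin ligase gene before Gata6, fell by 0.30 with PDGF-AB (adjusted p = 0.0193) and rose by 0.64 between passages of treated small colonies (adjusted p = 2.0e-05), the directions of Gata6, but was not called between colony types (-0.11, adjusted p = 0.41).

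**Figure D4:**
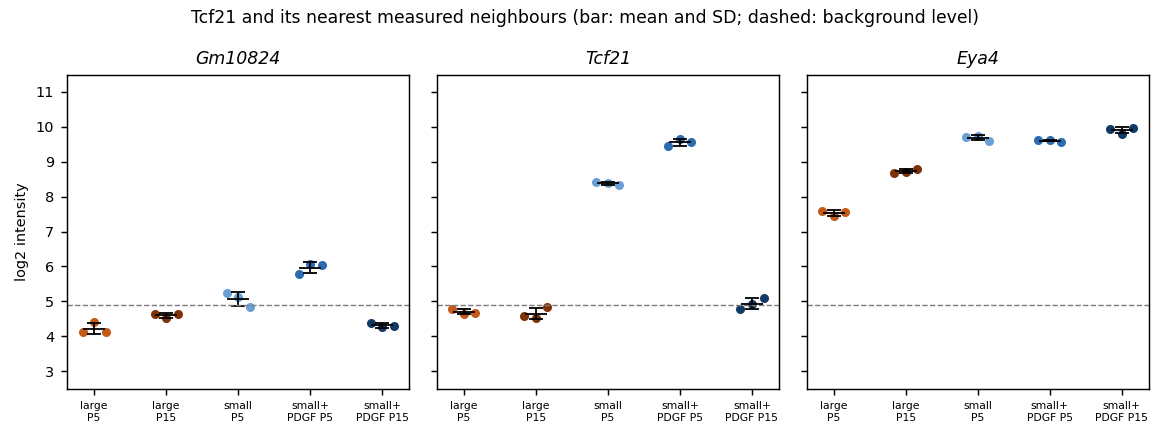
Log2 intensity (vertical axis) of Tcf21 and its nearest measured neighbours Gm10824 and Eya4 in the 5 groups, with a point for each array, a bar for the mean and SD of 3 arrays and a dashed line at the background level of 4.89. Gm10824 is highest (5.78 to 6.07) where Tcf21 is highest, and Eya4 stays at 9.80 to 9.98 in small colonies at passage 15 where Tcf21 is at 4.78 to 5.09.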

How the data were processed

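The deposited values were log2 intensities of 28853 probe sets, 1 column per array. The authors' processing is named only as RMA and limma, per the submitters' processing notes, with no version or role, and background settings and build are not given in the sources used here. Probe sets naming 1 gene were kept (21789), named by the platform annotation and updated by gene identifier to GRCm38.p6 RefSeq symbols (21698 matched), and the one with the highest mean was taken per gene, which left 19938 genes. Each of the 10 factors had 1 such probe set.

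All 15 arrays entered one group-means model with 7 contrasts, tested 2-sided by limma (version 3.58.1; R version 4.3.3) with 10 residual and 5.8 prior degrees of freedom. The pipeline was tested on simulated data. The members, lists and tests were chosen with earlier results of these data known. Named were all members, up to 3 called genes per direction and list by adjusted p (the lists of related factors, epicardial markers and cardiomyocyte genes), and the 3 genes most like each member that spanned at least 2. Neighbouring genes and the promoter motifs were chosen after values were seen. The alternatives were array centring, cyclic loess, a filter at the median level, all probe sets, their mean, the compared arrays alone, trend and robust moderation, array weights, a replicate block and leaving out each array. The number of arrays limits the precision.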

Additional observations from a re-analysis of the deposited data

Results flagged for a closer look

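The change from passage 5 to passage 15 differed between treated small and untreated large colonies, by the limma test of the difference itself, for 6 of the 10 factors, 20 of 38 related factors, 6 of 13 epicardial markers and 7 of 18 cardiomyocyte genes, against 34.4% of all genes. That share includes genes at background, whereas 36 of the 38 related factors lay above it in some group. When only the 9969 genes of higher level were tested, 5205 were called for this difference. Whether the lists exceed genes of like level was not tested. At most 3 genes per list and direction are given. The differences, small minus large, were -4.57 for Tcf21, -1.10 for Tbx20, -1.004 for Mef2c, -0.29 for Tbx18, 0.42 for Tbx5 and 0.84 for Gata6. Tbx20 and Tcf21 were below background in large colonies at both passages.

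Among the related factors they were 2.67 for Hey2, 2.01 for Myocd, 1.62 for Gata3, -1.03 for Mrtfa, -0.78 for Osr1 and -1.26 for Shox2. Myocd was above background only in large colonies at passage 5 and Hey2 was below it in large colonies at passage 15, so the sizes of both rest partly on background levels. Among epicardial markers they were 2.07 for Upk1b, 1.99 for Aldh1a2, 0.82 for Msln, -0.88 for Bnc1 and -1.04 for Krt19. Aldh1a2 lay below background in small colonies at both passages. Among cardiomyocyte genes they were 0.50 for Tnnc1, 0.34 for Myh7, 0.23 for Ryr2, -0.64 for Tnnt2 and -0.37 for Myl4. Ryr2 lay below background in all groups. Groups of 3 arrays were too small for a test of single outlying arrays.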

How the results depend on the processing

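Over 70 changes (10 factors in 7 comparisons) 1009 of 1089 alternative values kept their direction and their side of the threshold, 24 lost the call, 21 gained it and 35 changed sign. Of 38 calls 31 held under every alternative that kept the gene. None of the sign changes was in a called change. Nothing in the labels pairs the replicate numbers, so the main fit did not use them as a block. To look for pairing, the group mean of each gene was subtracted from each array, and what was left was correlated across genes. By this measure same-numbered arrays of large colonies at the 2 passages correlated at 0.2085, 0.0984 and 0.2023. There 6 of 6 arrays were closest to their own number, and elsewhere 0 to 4 of 6 were.

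The number of factors called with passage in large colonies, 1, became 2 with cyclic loess, with genes below the median left out (7 factors remained), with trend and robust moderation, with array weights and with the replicate block. It became 0 with the compared arrays alone, and lay between 0 and 2 without single arrays. In the 6 other comparisons the count stayed within 1.5 times. The replicate block changed no call of a factor other than that of Gata6 with passage in large colonies.

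Values that changed sign, all uncalled in both settings, were as follows. With arrays centred on their medians they were -0.0056 for Tbx18 and -0.011 for Mef2c with PDGF-AB, -0.0458 for Gata4 and -0.0194 for Gata5 with passage in treated small colonies, -0.0396 for Hand2 against large colonies at passage 15, and -0.0613 for Gata5 in the difference of passage changes. With cyclic loess they were -0.0327 for Gata5 with passage in treated small colonies, -0.0394 for Wt1, -0.0623 for Gata5 and -0.10 for Hand2 against large colonies at passage 15, and -0.0127 for Wt1 and -0.12 for Gata5 in the difference. With array weights they were 0.0022 for Wt1 between colony types and -0.0293 for Gata5 against large colonies at passage 5.

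Without single arrays the ranges of the changes that crossed 0 were as follows. With passage in large colonies they were Tcf21 -0.15 to 0.0004, Gata5 -0.0825 to 0.10 and Mef2c -0.11 to 0.0334. Between colony types they were Wt1 -0.10 to 0.0966. With PDGF-AB they were Wt1 -0.0689 to 0.0059 and Mef2c -0.0796 to 0.094. With passage in treated small colonies they were Gata4 -0.0185 to 0.0556 and Gata5 -0.0693 to 0.14. Against large colonies at passage 5 they were Wt1 -0.12 to 0.0807 and Gata5 -0.0313 to 0.20. In the difference they were Gata5 -0.10 to 0.13.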
